A study of Mus musculus with 12 samples.

Results

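A set of 9 genes of the epithelial alarmin system was followed in RNA sequencing of mouse ear skin treated with an active vitamin D3 analogue. They were taken by symbol, 9 of the 23234 gene symbols listed in every library: the alarmin cytokines Tslp, Il33 and Il25, the receptor chains Crlf2 and Il7r (for TSLP) and Il1rl1 (for IL-33), and the chains Il4ra, Il13ra1 and Il13ra2 that bind the downstream cytokines IL-4 and IL-13. All 9 symbols were found, and 8 reached the level needed for testing; Il25 did not.

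Alarmins are cytokines that barrier cells make or release when the epithelium is disturbed. In skin, keratinocytes secrete TSLP, which binds a receptor of CRLF2 and IL7R on dendritic cells, T cells, basophils and innate lymphoid cells and signals through JAK kinases and STAT5. IL-33 binds IL1RL1 (ST2) with the accessory chain IL1RAP, IL-25 binds IL17RA with IL17RB, and the type 2 cytokines that follow, IL-4 and IL-13, signal through IL4RA paired with IL2RG or IL13RA1 and through STAT6, while IL13RA2 is a decoy chain. Vitamin D analogues applied to mouse skin are known to raise Tslp in keratinocytes, with the vitamin D receptor VDR as the mediator.

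The 12 libraries formed 4 groups of 3, all from the ear skin of mice of the strain C57BL/6J, at an age of 8 to 12 weeks. Wild type ears were left untreated (WT_untreated), given phosphate-buffered saline (WT_PBS), or given 100 mg of Oxarol ointment with 2.5 µg of maxacalcitol, the vitamin D3 analogue (WT_Oxarol). The fourth group, VDRcKO_Oxarol, received the same ointment and carried K5-Cre;VDR f/f: Cre recombinase under the keratin 5 promoter acts on the floxed Vdr alleles in basal keratinocytes and their progeny, so other skin cells keep the receptor. Treated ears were collected 1 day after application. No untreated or PBS group of the K5-Cre;VDR f/f genotype was analysed here, so an effect of the genotype and of its response to the ointment cannot be told apart, and PBS is not the base of the ointment. Values are FPKM, a read abundance divided by transcript length and sequencing depth, which allows levels to be set side by side between genes. Differences were tested on log2(FPKM + 1) with limma over 14059 genes, with p-values adjusted by the Benjamini-Hochberg method and a threshold of 0.05; this scale understates changes of low genes. Nothing in the labels ties the 3 libraries of a group to different mice, so the p-values speak of the spread between libraries, possibly a technical one. In such bulk samples, fewer cells of a type and less RNA per cell cannot be told apart.

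The libraries carried the markers of skin, with basal keratinocyte genes such as Krt5 and Krt14 summing to between 2829 and 4490 FPKM. The label check gave different answers for a receptor target and for the receptor gene. Cyp24a1, the standard target of VDR, measured 66.2, 599 and 458 FPKM in WT_Oxarol but only 0, 0.271 and 0.175 FPKM in VDRcKO_Oxarol. Vdr itself measured 7.87, 6.68 and 7.05 FPKM in WT_Oxarol, and 23.6, 25.04 and 17.98 FPKM in the libraries labelled VDRcKO_Oxarol, against the direction of the label; a value over the whole gene includes exons outside the deleted part, so it does not check the deletion. From the steps between low values, 11 libraries held 0.229 to 1.21 times the reads of WT_PBS replicate 1, the 3 VDRcKO_Oxarol libraries being the shallowest at 0.229, 0.273 and 0.337 times, and WT_PBS replicate 3 held 5.7 times, where a factor of 2 remains possible. WT_untreated replicate 1 stood apart through low values of GC-rich genes, described with the receptor chains.

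**Figure D1:**
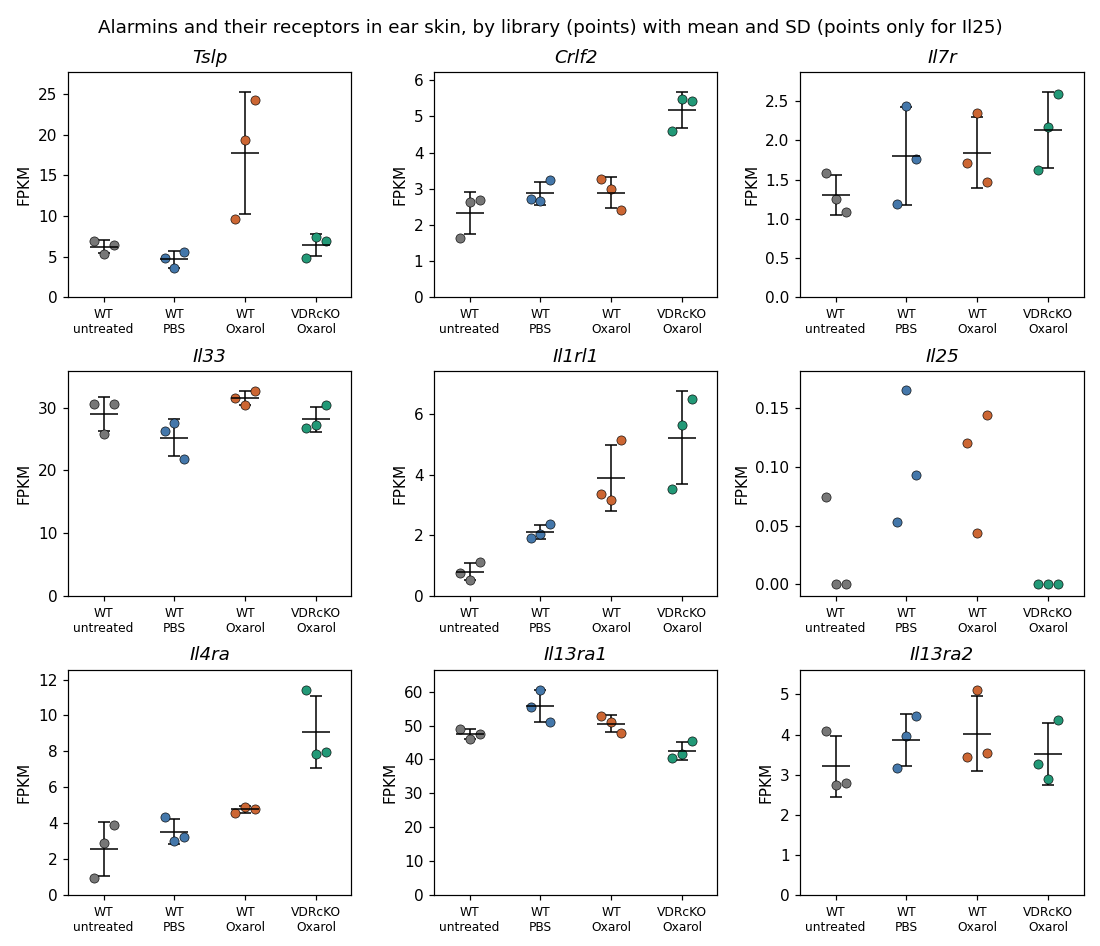
Level of each of the 9 genes in FPKM (vertical axis, from 0 except for Il25) in the 3 libraries of each group (points, horizontal axis), with the group mean and SD as bars for all but Il25. Tslp is highest in WT_Oxarol at 9.65 to 24.3 FPKM, while Crlf2 and Il4ra are highest in VDRcKO_Oxarol.

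The ligand Tslp was the gene of this set called between ointment and PBS in wild type skin. The PBS libraries held 4.87, 3.59 and 5.62 FPKM, and the ointment libraries 9.65, 19.3 and 24.3 FPKM. Every ointment library lay above every PBS library, and the ointment group was the most variable, its lowest library being replicate 1. That library was also the lowest of the group in Cyp24a1, at 66.2 FPKM. The difference in Tslp was 1.65 ± 0.28 (SE, log2 scale, n = 3 and 3; 95% interval 1.02 to 2.27; limma, adjusted p = 0.0440), and the group means were 3.78-fold apart.

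The call on Tslp lay close to the threshold. Its difference stayed between 1.39 and 2.01 in the 25 alternative analyses, yet it passed in 9 of them, with adjusted p between 0.00281 and 0.834. It was lost when any library other than WT_Oxarol replicate 1 was left out, with adjusted p from 0.0553 without WT_untreated replicate 1 to 0.227 without WT_Oxarol replicate 2.

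With the ointment, Tslp was lower in the K5-Cre;VDR f/f genotype than in wild type. The VDRcKO_Oxarol libraries held 4.90, 7.38 and 6.98 FPKM, each below the lowest WT_Oxarol library. Tslp fell by 1.26 ± 0.28 (SE, log2 scale; 95% interval -1.89 to -0.64; adjusted p = 0.0212) against WT_Oxarol. Against the wild type groups without ointment the values overlapped: the difference from WT_PBS was 0.38 (95% interval -0.24 to 1.00) and from WT_untreated, where Tslp stood at 6.92, 5.32 and 6.39 FPKM, 0.03 (95% interval -0.59 to 0.65). These intervals leave room for a difference in either direction. By mean level the order of the groups was WT_PBS at 4.69 ± 1.02, WT_untreated at 6.21 ± 0.81, VDRcKO_Oxarol at 6.42 ± 1.34 and WT_Oxarol at 17.8 ± 7.46 FPKM (SD, n = 3), and the first 3 were not told apart by the test. The comparison of WT_Oxarol with WT_untreated gave 1.30 ± 0.28, just short of the threshold (adjusted p = 0.0598).

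The fall in Tslp between the genotypes kept its sign in every alternative analysis, from -1.63 to -1.003, but did not pass without WT_Oxarol replicate 2 or 3 or without any 1 of the VDRcKO_Oxarol libraries (adjusted p from 0.0503 to 0.0758). Library codes in the labels fall into 2 number series, with WT_Oxarol replicates 1 and 2 in the first and the other 4 ointment libraries in the second. Within the second, Tslp was at 24.3 FPKM in the WT_Oxarol library and at 4.90 to 7.38 FPKM in VDRcKO_Oxarol, and with the series as a term the difference was -1.53 (adjusted p = 0.0423). For ointment against PBS the first series gave 9.65 and 19.3 against 4.87 and 3.59 FPKM (1.502, adjusted p = 0.834 in that series alone) and the second 24.3 against 5.62 FPKM.

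Il33, a cytokine stored in the nucleus of barrier cells, was at a higher level than Tslp in each of the 12 libraries. It stood at 26.3, 27.6 and 21.9 FPKM in WT_PBS, at 31.5, 30.4 and 32.6 in WT_Oxarol, and at 26.8, 27.2 and 30.4 in VDRcKO_Oxarol. The WT_Oxarol libraries lay above all WT_PBS libraries by a small margin, a difference of 0.31 ± 0.10 (SE, log2 scale) that did not pass (adjusted p = 0.383). Untreated skin, at 30.6, 25.8 and 30.5 FPKM, overlapped both. VDRcKO_Oxarol differed from WT_Oxarol by -0.16 (95% interval -0.39 to 0.07; adjusted p = 0.306).

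Il25 was near the limit of what these libraries can show. Of the wild type libraries, 7 of 9 were listed between 0.0440 and 0.166 FPKM, and 2 of the untreated libraries and all 3 VDRcKO_Oxarol libraries were listed at 0. The steps between low values give only ratios between libraries, so the Il25 value of WT_PBS replicate 1 was taken as 1 read. In that assumed unit, these wild type values correspond to 1 or 2 reads. In WT_PBS replicate 3, whose relative depth is less certain, the value corresponds to about 10. In the same assumed unit, a single read would be worth 0.158 to 0.232 FPKM in the shallow VDRcKO_Oxarol libraries. Levels such as those of the wild type libraries would then give about 1 read or fewer there. A difference cannot be read from these zeros at this depth, and no fold is given.

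Of the 8 tested genes, 1 was called in the ointment comparison, against 0.306% of all genes tested (43 of 14059). Libraries did not overlap for 4 of the 8 (Tslp, Il33, Il1rl1 and Il4ra, all higher with the ointment), against 15.9% of all genes tested. In the genotype comparison 2 of 8 were called, Tslp lower and Crlf2 higher, against a background of 13.1%, and 4 of 8 did not overlap (Tslp and Il13ra1 lower, Crlf2 and Il4ra higher) against 42.2%. With 8 genes, the shares in the genotype comparison are not set apart from those of all genes. Both comparisons use the same 3 WT_Oxarol libraries, so they are not independent readings.

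**Figure D2:**
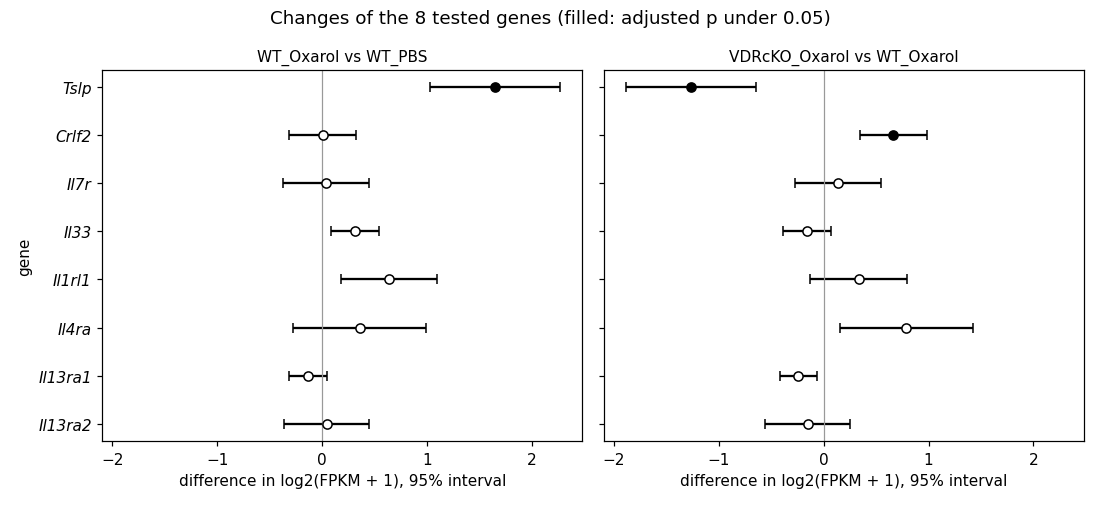
Difference in log2(FPKM + 1) (horizontal axis) for the 8 tested genes (vertical axis), with its 95% interval, for ointment against PBS in wild type (left) and for the K5-Cre;VDR f/f genotype against wild type under ointment (right). Filled points passed the test: Tslp at 1.65 on the left, and Tslp at -1.26 and Crlf2 at 0.67 on the right.

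Among the receptor chains, Crlf2 and Il4ra were highest in VDRcKO_Oxarol, and Il1rl1 was lowest in untreated skin. The promoter windows of these 3 genes are shown here as those of the chains called higher in at least 1 of the 6 comparisons. The windows were not related to the measured changes. Each is the stretch of 250 bases before a RefSeq start site, on the strand of the gene, with Il1rl1 having 2 annotated starts. Positions are on GRCm38.p6, another build than the mm9 of the authors' processing. Capitals mark matches, on either strand, to AGGTCA or GGGTCA (half-sites that VDR can bind), TTCNNNGAA (STAT5-type), the STAT6-type site, which has 1 more base between TTC and GAA, or GGGCGG (a GC box), and matches to a motif may share bases.
Crlf2, chr5:109558994-109559243, minus strand: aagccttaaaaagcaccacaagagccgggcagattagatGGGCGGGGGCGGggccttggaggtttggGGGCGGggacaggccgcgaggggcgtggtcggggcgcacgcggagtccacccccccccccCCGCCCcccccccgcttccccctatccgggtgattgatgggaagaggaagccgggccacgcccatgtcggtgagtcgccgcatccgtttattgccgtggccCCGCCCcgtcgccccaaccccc
Il4ra, chr7:125552021-125552270, plus strand: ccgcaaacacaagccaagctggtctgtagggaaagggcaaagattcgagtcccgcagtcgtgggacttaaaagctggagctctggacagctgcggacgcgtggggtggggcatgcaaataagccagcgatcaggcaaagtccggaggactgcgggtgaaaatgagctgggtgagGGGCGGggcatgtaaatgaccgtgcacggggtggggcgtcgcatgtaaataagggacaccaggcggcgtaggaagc
Il1rl1, chr1:40429320-40429569, plus strand: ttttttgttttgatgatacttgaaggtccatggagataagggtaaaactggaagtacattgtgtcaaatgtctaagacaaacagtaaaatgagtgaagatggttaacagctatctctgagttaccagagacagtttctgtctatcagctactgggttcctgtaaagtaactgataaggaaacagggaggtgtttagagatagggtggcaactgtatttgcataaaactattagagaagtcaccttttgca
Il1rl1, chr1:40439379-40439628, plus strand: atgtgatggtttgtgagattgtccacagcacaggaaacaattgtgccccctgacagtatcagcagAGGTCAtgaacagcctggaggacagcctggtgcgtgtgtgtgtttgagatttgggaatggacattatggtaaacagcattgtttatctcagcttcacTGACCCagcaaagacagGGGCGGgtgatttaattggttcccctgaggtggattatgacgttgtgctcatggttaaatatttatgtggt

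The Crlf2 window was 71.6% G or C, at percentile 92.7 of all 32851 such windows, and held 5 GC boxes. The Il4ra window was 59.6% G or C and held 1 GC box. The first Il1rl1 window was 37.6% G or C with no match, and the second, at 46.4%, held 1 AGGTCA, 1 GGGTCA (read on the opposite strand) and 1 GC box. Over all windows the median was 52.4% G or C, and AGGTCA was found in 14.02%, GGGTCA in 11.6%, TTCNNNGAA in 7.02%, the STAT6-type site in 5.85% and GGGCGG in 32.7%. A match is a string of letters in this stretch and shows no binding. RefSeq windows were matched for 7 of the 9 genes, with none for Tslp or Il25.

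Crlf2, the chain specific to TSLP, did not follow its ligand. It stood at 2.73, 2.66 and 3.24 FPKM in WT_PBS and at 3.28, 2.98 and 2.42 in WT_Oxarol, values that overlap and differ by 0.00 (95% interval -0.32 to 0.33, log2 scale). In VDRcKO_Oxarol it stood at 4.59, 5.48 and 5.43 FPKM, above every library of the other groups. The rise over WT_Oxarol was 0.67 ± 0.15 (SE, log2 scale; 95% interval 0.34 to 0.99; adjusted p = 0.0206), and the means were 1.78-fold apart. Against WT_PBS the rise was 0.67 (adjusted p = 0.0164) and against WT_untreated, at 1.65, 2.63 and 2.69 FPKM, 0.91 (adjusted p = 0.00507).

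The GC tendency of the libraries differed between the same groups as Crlf2, and its part in the rise was not tested beyond the correction given here. Crlf2 transcripts are 65.2% G or C, at percentile 99.5 of the genes tested. GC-rich genes as a class were higher in VDRcKO_Oxarol: between the highest and the lowest 10% of genes by transcript GC, the median of centred log2(FPKM + 1) differed by 0.23, 0.26 and 0.12 in its 3 libraries. In the other libraries this contrast lay between -0.11 and 0.13, except in WT_untreated replicate 1, where it was -0.51. Crlf2 stood at 2.42 to 3.28 FPKM in the wild type libraries other than WT_untreated replicate 1, and at 4.59 to 5.48 in VDRcKO_Oxarol. It was lowest, at 1.65 FPKM, in WT_untreated replicate 1. In the genotype comparison the share of genes called higher went from 4.25% in the lowest 10% by GC to 15.6% in the highest, and the median change from 0.00 to 0.26. With each library corrected for transcript GC, an analysis added after seeing the data, the Crlf2 difference was 0.36 and its call ended (adjusted p = 0.0883). Against WT_PBS it was then 0.37 (adjusted p = 0.0692), and against WT_untreated 0.55 (adjusted p = 0.0174). With the library series as a term the difference from WT_Oxarol was 0.63 (adjusted p = 0.0907), and the call also ended without WT_Oxarol replicate 2 or 3 or VDRcKO_Oxarol replicate 2 or 3 (adjusted p from 0.0563 to 0.0673). Tslp, at 39.6% G or C, was little moved by the GC correction: the fall between genotypes was then -1.27 (adjusted p = 0.0177) and the rise with ointment 1.62 (adjusted p = 0.0453).

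**Figure D3:**
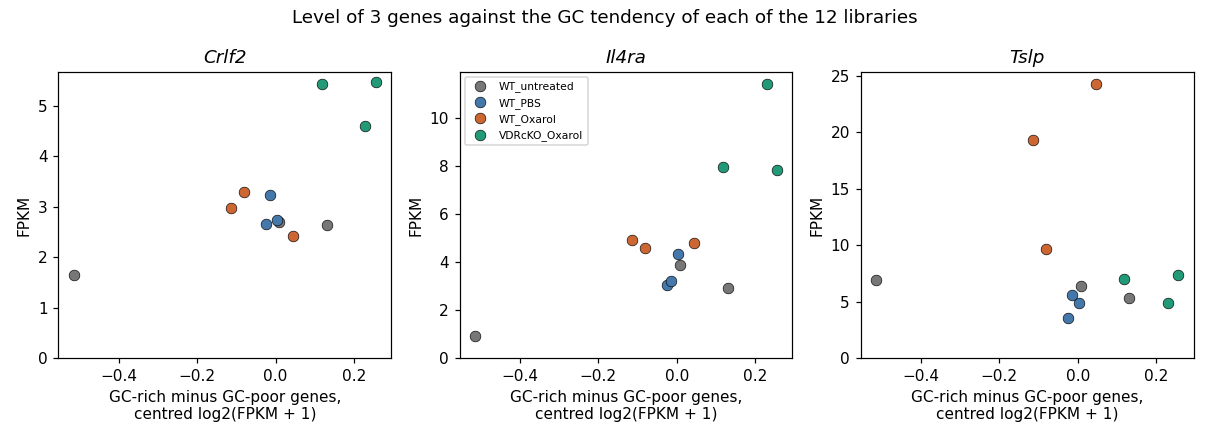
Level in FPKM (vertical axis) of Crlf2, Il4ra and Tslp in each of the 12 libraries (points, coloured by group) against the library's GC tendency (horizontal axis), the median centred log2(FPKM + 1) of the highest 10% of genes by transcript GC minus that of the lowest. The 3 VDRcKO_Oxarol libraries lie at 0.12 to 0.26 and are highest in Crlf2 and Il4ra, and WT_untreated replicate 1 at -0.51 is lowest in both.

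Il7r, the chain that TSLP shares with IL-7, was low throughout. It stood at 1.19, 2.44 and 1.76 FPKM in WT_PBS, at 1.71, 2.34 and 1.47 in WT_Oxarol and at 1.62, 2.17 and 2.59 in VDRcKO_Oxarol. All 3 groups overlapped, and no comparison passed; the closest was VDRcKO_Oxarol against WT_untreated, 0.43 (adjusted p = 0.122), where untreated skin stood at 1.08 to 1.58 FPKM. T cell markers, a population that carries IL7R, summed to 34.95 to 40.98 FPKM in WT_Oxarol and 56.0 to 58.5 in VDRcKO_Oxarol over 10 genes, and 2 of the 8 tested, the CD3 chains Cd3e (0.62, adjusted p = 0.0162) and Cd3g (0.63, adjusted p = 0.0206), were called higher. In that comparison 13.1% of all genes were called. The T cell sum spanned 40.5 to 58.5 FPKM in untreated skin and 42.1 to 44.5 with PBS. The part of these cells in the Crlf2 and Il7r values was not tested.

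Il1rl1, the IL-33 receptor chain, rose along the treatments of wild type skin. It stood at 0.753, 0.546 and 1.12 FPKM untreated, at 1.91, 2.05 and 2.37 with PBS and at 3.37, 3.17 and 5.15 with the ointment, and no library of a group overlapped the group before. Neither single step passed: PBS against untreated differed by 0.79 ± 0.21 (SE, log2 scale; adjusted p = 0.430) and ointment against PBS by 0.64 ± 0.21 (adjusted p = 0.383). The whole span, WT_Oxarol against WT_untreated, was a rise of 1.43 ± 0.21 (adjusted p = 0.0125), with means 4.84-fold apart; it did not pass without WT_Oxarol replicate 3 (1.26, adjusted p = 0.0623) or in a fit of these 2 groups alone (adjusted p = 0.0936).

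In VDRcKO_Oxarol Il1rl1 stood at 3.51, 5.63 and 6.49 FPKM, overlapping WT_Oxarol. The difference between the genotypes was 0.33 (95% interval -0.13 to 0.79; adjusted p = 0.289). Against WT_PBS it was 0.97 (adjusted p = 0.0155; 0.0540 to 0.0716 without WT_PBS replicate 1 or 2 or VDRcKO_Oxarol replicate 2 or with the library series in the fit) and against WT_untreated 1.76 (adjusted p = 0.00183). The mean order was thus WT_untreated at 0.805, WT_PBS at 2.11, WT_Oxarol at 3.90 and VDRcKO_Oxarol at 5.21 FPKM, with no neighbouring pair told apart by the test. Mast cells carry IL1RL1 at high levels, and their 10 markers overlapped between the groups, summing to 346 to 461 FPKM in untreated, 338 to 398 in PBS, 347 to 388 in WT_Oxarol and 382 to 458 in VDRcKO_Oxarol, with 0 of 10 called for ointment against PBS or between the genotypes, where Il1rl1 was not called either. In the comparisons that called Il1rl1, mast cell markers gave 1 call higher for WT_Oxarol against WT_untreated, 2 higher and 1 lower for VDRcKO_Oxarol against WT_PBS, and 2 higher for VDRcKO_Oxarol against WT_untreated (median 0.42 over the 10 markers, beside 0.08 over all genes). In the same order, 1.31%, 16.3% and 19% of all genes were called in these comparisons. For ointment against PBS and between the genotypes the shares were 0.306% and 13.1%. Neutrophil markers (5 measured genes) moved in the same direction as Il1rl1. Of these 5, 2 were called higher for WT_Oxarol against WT_untreated (median 1.06). For VDRcKO_Oxarol, 1 was called higher against WT_PBS (median 0.25) and 4 against WT_untreated (median 1.39). The neutrophil markers summed to 15.4 to 25.97 FPKM in untreated skin and to 52.4 to 142 FPKM in the 3 treated groups. In the treated libraries S100a8 and S100a9 made up most of this sum, at 58.7 and 23.3 of 96.7 FPKM in WT_PBS replicate 1. Both genes also belong to the list of other epithelial alarmins. The part of mast cells or neutrophils in the Il1rl1 values was not tested.

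For the PBS step, 0 of the 8 genes were called, against 0.00711% of all genes tested (1 of 14059), and 2 did not overlap (Il1rl1 and Il13ra1, both higher with PBS) against 13% of all genes. For WT_Oxarol against WT_untreated, Il1rl1 was the 1 gene of 8 called, against 1.31% of all genes.

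Il4ra, the signalling chain for IL-4 and IL-13, was highest in VDRcKO_Oxarol. It stood at 4.35, 3.03 and 3.23 FPKM in WT_PBS, at 4.58, 4.92 and 4.79 in WT_Oxarol and at 11.4, 7.86 and 7.99 in VDRcKO_Oxarol. The 3 groups did not overlap, replicate 1 of VDRcKO_Oxarol being the highest library. The difference between the genotypes was 0.79 ± 0.29 (SE, log2 scale; 95% interval 0.16 to 1.42) and did not pass (adjusted p = 0.0879). That error is shared over all groups, and the untreated group was wide, at 0.942, 2.92 and 3.90 FPKM. Without WT_untreated replicate 1, which plays no part in the difference itself, the same 0.79 passed (adjusted p = 0.00855). Leaving out that library also raised the calls over all genes in this comparison from 1848 to 3435. Between the genotypes Il4ra passed in 4 of 24 alternative analyses. Against WT_PBS, Il4ra rose by 1.15 (adjusted p = 0.0256), a call that ended when any 1 of the 6 libraries compared was left out (adjusted p from 0.0520 to 0.0922), and against WT_untreated by 1.58 (adjusted p = 0.00775). Ointment against PBS in wild type gave 0.36 (95% interval -0.28 to 0.99; adjusted p = 0.932).

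Il4ra is GC-rich too, at 56.7% G or C in its transcripts (percentile 82.1), and its lowest library, WT_untreated replicate 1, was the one with low GC-rich genes. With the GC correction the difference between the genotypes was 0.62 (adjusted p = 0.108), or the same 0.62 with adjusted p = 0.0190 when WT_untreated replicate 1 was also left out, and the rise over WT_PBS was 0.99 (adjusted p = 0.0227). With the library series as a term the rise over WT_PBS was 0.99 and no longer passed (adjusted p = 0.117). The difference between the genotypes was then 0.63 (adjusted p = 0.306). Macrophages carry IL4RA, and their 10 markers summed to 610 to 798 FPKM in WT_Oxarol and 1010 to 1266 in VDRcKO_Oxarol, with 7 of 10 called higher, led by Emr1 (0.97, adjusted p = 0.00765), Mrc1 (0.53, adjusted p = 0.00781) and Lyz2 (0.96, adjusted p = 0.00962). Between these genotypes 13.1% of all genes were called. The macrophage sum of untreated and PBS skin lay at 570 to 678 FPKM. The part of macrophages in the Il4ra value was not tested.

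Il13ra1, which pairs with IL4RA to form the receptor for IL-13 in cells such as keratinocytes, was the most abundant of the 9 genes in every library. It stood at 55.4, 60.5 and 51.2 FPKM in WT_PBS, at 52.9, 50.9 and 47.8 in WT_Oxarol and at 40.5, 41.7 and 45.6 in VDRcKO_Oxarol. The last group lay below all others, in the opposite direction to Il4ra. The difference from WT_Oxarol was -0.24 ± 0.08 (SE, log2 scale; adjusted p = 0.0701), and from WT_PBS it fell by 0.38 (adjusted p = 0.0152), a fall that was not called without WT_PBS replicate 1 or 2 or VDRcKO_Oxarol replicate 1 or 2, or once the library series entered the fit (adjusted p from 0.0528 to 0.0761). Untreated skin, at 49.0, 46.2 and 47.5 FPKM, lay below PBS, and WT_Oxarol differed from it by 0.08 on the log2 scale (adjusted p = 0.647). Its transcripts are 41.2% G or C, and with the GC correction the values were -0.25 (adjusted p = 0.0631) and -0.41 (adjusted p = 0.00960).

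Il13ra2, the decoy chain for IL-13, gave no call in any of the 6 comparisons. It stood at 3.16, 3.95 and 4.46 FPKM in WT_PBS, at 3.43, 5.11 and 3.53 in WT_Oxarol, at 3.28, 2.90 and 4.38 in VDRcKO_Oxarol and at 4.08, 2.74 and 2.80 untreated. All groups overlapped, and the ointment and genotype differences were 0.04 (95% interval -0.36 to 0.45) and -0.15 (95% interval -0.56 to 0.25).

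Set against wild type skin without ointment, more of the 8 genes were called in VDRcKO_Oxarol, as were more genes over all. Against WT_PBS 4 were called (Crlf2, Il1rl1 and Il4ra higher, Il13ra1 lower) with a background of 16.3%, and against WT_untreated 3 (Crlf2, Il1rl1 and Il4ra higher) with a background of 19%. These comparisons share the VDRcKO_Oxarol libraries with the genotype comparison.

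Of the partner chains that complete these receptors, Il2rg and Il1rap stood above the chains they pair with. Il2rg, the common gamma chain, stood at 19.5 ± 0.92 FPKM (SD, n = 3) in WT_PBS, 19.9 ± 2.84 in WT_Oxarol and 23.1 ± 4.68 in VDRcKO_Oxarol. Il1rap, the partner of ST2, stood at 13.6 ± 0.79, 13.7 ± 1.70 and 17.3 ± 0.79 FPKM, a genotype difference of 0.32 that did not pass (adjusted p = 0.0583). The IL-25 receptor chains Il17ra and Il17rb stood at 8.77 ± 0.55 and 2.90 ± 0.33 FPKM in WT_PBS and changed by less than their error with the ointment in the case of Il17ra (-0.06 ± 0.28) and by 0.22 ± 0.17 for Il17rb. Of 10 partner and related chains 8 were tested, and 0 were called in either main comparison, against 0.306% (ointment) and 13.1% (genotype) of all genes. The median differences were 0.02 (ointment) and 0.22 (genotype) beside 0.01 and 0.08 over all genes.

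The type 2 and related cytokines were low: of 7 listed genes (Il4, Il5, Il13, Il9, Il31, Il3 and Csf2) none passed the filter on low values. Il4 and Il13 encode the ligands of the receptors of Il4ra and Il13ra1. Il4 was listed at 0 to 1.04 FPKM and Il5 at 0 to 0.288 over all libraries. Il13 was listed at 0.259, 0.113 and 0.124 FPKM in WT_Oxarol libraries and at 1.19, 0.335 and 0.135 in VDRcKO_Oxarol, values that overlap.

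Of 17 JAK-STAT genes, which carry the signal of the TSLP, IL-4 and IL-13 receptors, 0 were called with the ointment (median 0.01, as over all genes). The share of all genes called with the ointment was 0.306%. Between the genotypes 1 was called, against 13.1% of all genes, and 14 of 17 had a difference above 0 (median 0.27, beside 0.08 over all genes). In that comparison the median was 0.26 over the 10% of genes with the highest transcript GC. The medians of this and the other gene lists were not corrected for transcript GC, and its part in them was not tested. The gene called higher was the kinase Tyk2, which serves IL13RA1, with 2.88, 3.34 and 2.96 FPKM in wild type and 5.74, 4.71 and 4.97 in VDRcKO_Oxarol (0.59, adjusted p = 0.0433). Stat6, the factor of the IL-4 receptor, stood at 29.1 ± 2.18 FPKM in WT_Oxarol and 35.5 ± 1.29 in VDRcKO_Oxarol (SD, n = 3, adjusted p = 0.473). Its libraries did not overlap between these groups, as for 42.2% of all genes. The error of the test is shared over all groups, and untreated skin was wide, at 11.3, 26.6 and 27.8 FPKM. Of 16 genes of the MyD88 and Act1 pathways, used by the receptors for IL-33 and IL-25, 0 were called with the ointment (median -0.06). Between the genotypes 1 was called lower (median 0.0050), the kinase Irak1. These counts stand beside 0.306% and 13.1% of all genes. Irak1 was at 19.8, 16.3 and 16.8 FPKM in WT_Oxarol and 13.9, 13.7 and 12.9 in VDRcKO_Oxarol (-0.36, adjusted p = 0.0263).

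Genes that type 2 inflammation is known to raise gave no call with the ointment (0 of 16 tested of 21 listed, median 0.02). With 0.306% of all genes called in that comparison, a count of 0 is near this share and does not show that a response was absent. Ccl17, a chemokine that dendritic cells make on exposure to TSLP, stood at 4.27, 9.37 and 9.69 FPKM in WT_PBS and at 11.2, 12.6 and 5.96 in WT_Oxarol, which overlap (adjusted p = 0.980). Between the genotypes 3 of 16 were called higher and 0 lower, a share near the 13.1% of all genes called, with a median of 0.35 beside 0.08 over all genes: the macrophage receptor Mrc1 (0.53, adjusted p = 0.00781), the chemokine Ccl8 (0.79, adjusted p = 0.0362) and the matrix protein Postn (0.96, adjusted p = 0.0486). Ccl8 measured 374, 331 and 422 FPKM in WT_Oxarol and 738, 625 and 584 in VDRcKO_Oxarol. Mrc1 is also 1 of the macrophage markers above, and Postn is made by fibroblasts, whose 8 markers were called higher in 5 cases, led by Fn1 (1.00, adjusted p = 0.00920), with sums of 2067 to 2721 FPKM in WT_Oxarol and 3183 to 3894 in VDRcKO_Oxarol. The part of these cells in the list was not tested.

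Of the other epithelial alarmins, 0 of 8 tested were called with the ointment (median 0.04), against 0.306% of all genes. Between the genotypes 1 of 8 was called higher (median 0.29), against 13.1% of all genes: the inflammasome cytokine Il18. It ran opposite to Tslp: 46.5, 60.5 and 50.5 FPKM in WT_PBS, 35.3, 25.4 and 32.1 in WT_Oxarol and 62.9, 67.1 and 68.7 in VDRcKO_Oxarol. The WT_Oxarol libraries lay below all others. The rise between the genotypes was 1.08 ± 0.16 (SE, log2 scale; adjusted p = 0.00721), while ointment against PBS, -0.75 ± 0.16, did not pass (adjusted p = 0.126). Il1a, an alarmin of keratinocytes, differed by 0.44 with the ointment (adjusted p = 0.438).

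**Figure D4:**
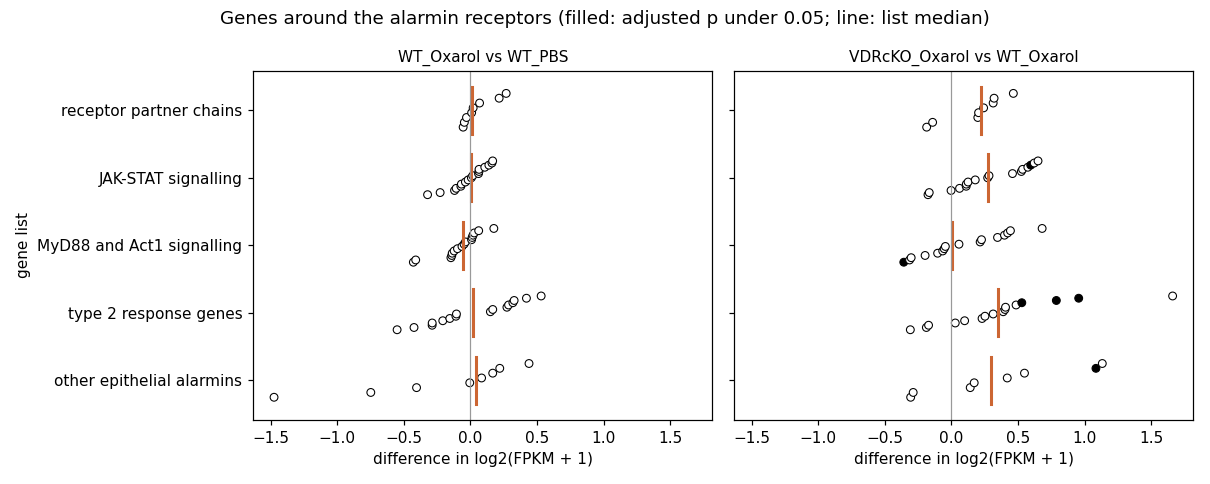
Difference in log2(FPKM + 1) (horizontal axis) of each tested gene (points) in 5 gene lists (vertical axis) for ointment against PBS in wild type (left) and for the K5-Cre;VDR f/f genotype against wild type under ointment (right), with the list median as a line and filled points for genes that passed the test. No point is filled on the left, and 6 are on the right, 5 higher and 1 lower.

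The marker lists of other cells are read against the 13.1% of all genes called between the genotypes. Markers called higher were 1 of 11 for dendritic and Langerhans cells (H2-Eb1, 0.54, adjusted p = 0.0327), 2 of 8 for endothelium, 8 of 10 for cartilage, 10 of 14 for the hair follicle and 2 of 9 for suprabasal keratinocytes (Casp14, 2.06, and Ivl, 1.03), and none was called lower. Hair follicle markers summed to 147 to 286 FPKM in WT_Oxarol and 364 to 1166 in VDRcKO_Oxarol, while untreated skin spanned 245 to 397 and PBS 298 to 511, overlapping VDRcKO_Oxarol. No marker was called in the lists of basal keratinocytes (0 of 7), type 2 innate lymphoid cells (0 of 4 tested of 8), mast cells, basophils and eosinophils (0 of 1 tested of 7), neutrophils (0 of 5), muscle (0 of 8), adipocytes (0 of 6) and erythrocytes (0 of 3), and no B cell marker passed the filter. In the list of type 2 innate lymphoid cells, Gata3 and Rora made up most of the sum, at 286 and 120 of 412 FPKM in WT_PBS replicate 1. Gata3 is also 1 of the hair follicle markers, so this list is not particular to these lymphoid cells. With the ointment against PBS, 1 marker over all 17 lists was called, the suprabasal keratin Krt1 (1.71, adjusted p = 0.00669), beside 0.306% of all genes. Basal keratinocytes, the layer that K5-Cre targets, summed to 2829 to 4022 FPKM in WT_Oxarol and 2993 to 3244 in VDRcKO_Oxarol, which overlap; the part of these cells in the Tslp values was not tested. Basophil and eosinophil markers, for cells that respond to TSLP and IL-33, summed to at most 2.86 FPKM in any library.

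By Pearson correlation of log2(FPKM + 1) over the 12 libraries, the genes most like Tslp were Tesc (0.945), Klk12 (0.941), Slc39a4 (0.940), Crot (0.934) and Cyp24a1 (0.928), each with its highest group mean in WT_Oxarol. Those most like Crlf2 were Ptpn23 (0.969), Stk11ip (0.968), Ube4b (0.961), Fmnl3 (0.959) and 1110018G07Rik (0.958), and those most like Il4ra were Flna (0.975), Fam43a (0.973) and Plvap (0.972). For Il1rl1 they were Stom (0.914), Ptges (0.907) and Atp6v1h (0.904), and for Il13ra1 Thumpd1 (0.941), Grhl1 (0.925) and Naa15 (0.916). The best matches of Il13ra2, Il7r and Il33 were Orc4 (0.875), 0610007P08Rik (0.858) and Ndufa4l2 (0.769). These values describe likeness over libraries that share their groups and their GC tendency.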

How the data were processed

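Ear skin RNA of 12 libraries was made into cDNA libraries with an NEBNext Ultra kit and sequenced, per the labels' protocols. The deposited tables give 1 value per gene symbol, taken as the FPKM that the authors made; the headers print no unit, and it was inferred from the tools and the range of the values. The submitters' processing notes name Cufflinks 2.1.1, TopHat2 2.0.8, Bowtie2 2.1.0 and the build mm9; roles and settings: not given in the sources used here. Without strand information, reads of a gene and of one that overlaps it cannot be separated.

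Values were tested as log2(FPKM + 1), a pseudocount of 1, with limma 3.58.1 in R 4.3.3. The 14059 genes that reached 1 FPKM in 3 or more of the 12 libraries were fitted with 1 mean for each of the 4 groups (residual degrees of freedom 8, intensity trend), with Benjamini-Hochberg adjustment over all genes at 0.05 in each of 6 comparisons. The procedure was tested on simulated data with independent noise for each gene and library. Those data held no GC tendency, library series or uneven depth, so they cannot show how these move the calls. The 9 genes and the 23 gene lists (6 pathway, 17 cell type) were chosen with earlier results of these data known. All 9 genes are named in each comparison. From each pathway list up to 5 genes per direction were named among those with adjusted p under 0.05, from cell type lists up to 3, and the most alike genes by rank of correlation. Stat6, Ccl17, Il1a, S100a8, S100a9, Gata3 and Rora were named beyond this rule, after their values were seen.

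Replicates were numbered in accession order, which pairs no samples. Library codes fall into 2 number series of 6 libraries each, which the labels do not call a batch. Transcript GC came from GENCODE M21 and was matched for 98.6% of genes tested, and promoter windows came from RefSeq (GRCm38.p6), used for sequence alone. Relative read numbers were taken from the steps between low values. Alternatives were a pseudocount of 0.1, other filters (none, 5 FPKM), quantile and median-of-ratios scaling, fits of 2 groups, the library series as a term or its first part alone, robust variance, array weights and leaving out each library. Python 3.11.15 and matplotlib 3.10.9 drew the figures.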

Additional observations from a re-analysis of the deposited data

How the results depend on the processing

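Of the 25 alternatives, 3 were chosen after seeing the data: both GC corrections and the fit without WT_untreated replicate 3 and WT_PBS replicate 3 together. No paired analysis was possible because replicate numbers only follow accession order. For ointment against PBS the 1 call among the 8 genes, Tslp, became 0 with no filter, in the fit of the 2 groups, in the first library series alone, without WT_untreated replicate 3 and WT_PBS replicate 3 together and with the GC correction without WT_untreated replicate 1. It lay between 0 and 1 when single libraries were left out. For the genotype comparison the 2 calls became 1 with a filter of 5 FPKM (which removes Crlf2), the series as a term or the GC correction, 3 with median-of-ratios scaling, the 2-group fit or the GC correction without WT_untreated replicate 1, and 4 with array weights; leaving out single libraries gave 0 to 4. Of PBS against untreated, 0 genes were called in every alternative. WT_Oxarol against WT_untreated gave 0 in the 2-group fit, 2 with the series as a term, robust variance, array weights or the GC correction, and 0 to 2 with single libraries left out. VDRcKO_Oxarol against WT_PBS gave 0 with the series as a term, 0 to 4 with single libraries left out and otherwise 3 or 4; against WT_untreated it gave 2 in the 2-group fit, 2 with a filter of 5 FPKM and otherwise 3. Over all genes, the 43 calls of the ointment comparison became 360 with array weights, 2 in the first series alone, 0 in the 2-group fit and 4 to 128 with single libraries left out. The 1848 calls between the genotypes became 3648 with array weights, 283 with the series as a term, 3235 with the GC correction without WT_untreated replicate 1, and 322 to 3435 with single libraries left out. Over all alternatives the 1 call of PBS against untreated ranged from 0 to 9, the 184 of WT_Oxarol against WT_untreated from 12 to 561, the 2286 of VDRcKO_Oxarol against WT_PBS from 540 to 5427 and the 2668 of VDRcKO_Oxarol against WT_untreated from 435 to 3346. Signs turned only for differences near 0 that were never called. With quantile normalization Il7r was at -0.027 between the genotypes, and against WT_untreated VDRcKO_Oxarol was at -0.15 for Tslp and -0.083 for Il13ra2. That Tslp difference was -0.042 with median-of-ratios scaling and -0.24 with the series as a term, and Il33 was there at 0.064 with array weights and at 5.4e-05 without WT_untreated replicate 3 and WT_PBS replicate 3. With single libraries left out, the ointment differences spanned -0.068 to 0.094 for Crlf2, -0.13 to 0.19 for Il7r and -0.11 to 0.13 for Il13ra2, and those of VDRcKO_Oxarol from WT_untreated -0.066 to 0.19 for Tslp, -0.12 to 0.0015 for Il33 and -0.028 to 0.25 for Il13ra2. The causes were not tested. Depth is known only as ratios, and it limits Il25 and the type 2 cytokines.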
